A study of Mus musculus with 24 samples.

Results

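Inguinal subcutaneous white fat of mice on a high-fat diet (HFD) was compared with that of mice on chow, both with a wild-type transgene of AMP-activated protein kinase (AMPK), for its γ1 subunit. The comparison takes 12 of the 24 RNA sequencing libraries of the study: the 6 labelled WT-Tg on HFD, from mice of 24 weeks, and the 6 labelled WT-Tg on chow, from mice of 16 weeks. All mice were C57BL/6J, and the high-fat diet held 45% fat. The other 12 libraries come from mice with the D316A form of the same subunit, 6 on chow at 16 weeks and 6 on HFD at 24 weeks, and are given beside the wild-type values as a separate pair of groups. Every group carries a γ1 transgene, so no group stands for a mouse without one, and the promoter that drives it, the sex of the mice and any pooling of animals were not given in the sources used here. Diet, age, the base-call converter and the deposited count table all change together between the groups, so their parts cannot be told apart and each difference below is one between cohorts. The labels do not say that the libraries of a group are separate animals. Each p-value therefore sets a difference only against the spread among these samples, which may be technical in part.

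White fat stores triglyceride in adipocytes, which make fatty acids from glucose, take up fatty acids from blood and release them again by lipolysis. As fat mass grows, adipocytes enlarge and secrete more leptin, collagen is laid down around them, and macrophages that clear lipid gather in the tissue. AMPK is a heterotrimeric kinase that senses the energy state of the cell and phosphorylates enzymes of fatty acid and sterol synthesis.

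Library totals were 13254536 to 17685717 counts on chow and 19063635 to 22748132 on HFD. The 2 tables shared 38013 gene identifiers, of which 18683 were set aside before any gene was described: predicted genes, clones, pseudogenes, antigen receptor segments and protein-coding genes with a processed pseudogene copy, whose reads can go to either place. Among genes not set aside, 11716 passed the filter on low counts and 59.5% of them were called, at an adjusted p below 0.05 in edgeR's quasi-likelihood test, with 29.3% higher and 30.1% lower in HFD. Of these, 2895 differed at least 2-fold, 1274 higher and 1621 lower, and the median log2 fold change was -0.01. The 6 HFD libraries and the 6 chow libraries did not overlap in CPM, the count relative to the TMM-scaled library total, for 31.7% of the genes. A list whose shares are near these values does not stand apart from the genes at large.

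The genes set aside behaved otherwise. Of 558 tested genes with clone names 43.4% were lower and 16.1% higher in HFD. Of 203 tested pseudogenes 84.7% were lower and 3.94% higher in HFD, and of 953 predicted genes 75.0% were lower and 8.92% higher. Of the 1569 coding genes with a pseudogene copy 43.8% were higher and 20.7% lower. The pseudogenes and the coding genes with copies thus leaned in opposite directions. Each cohort is in a table of its own, so the part of the table cannot be told apart from that of the cohort.

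**Figure D1:**
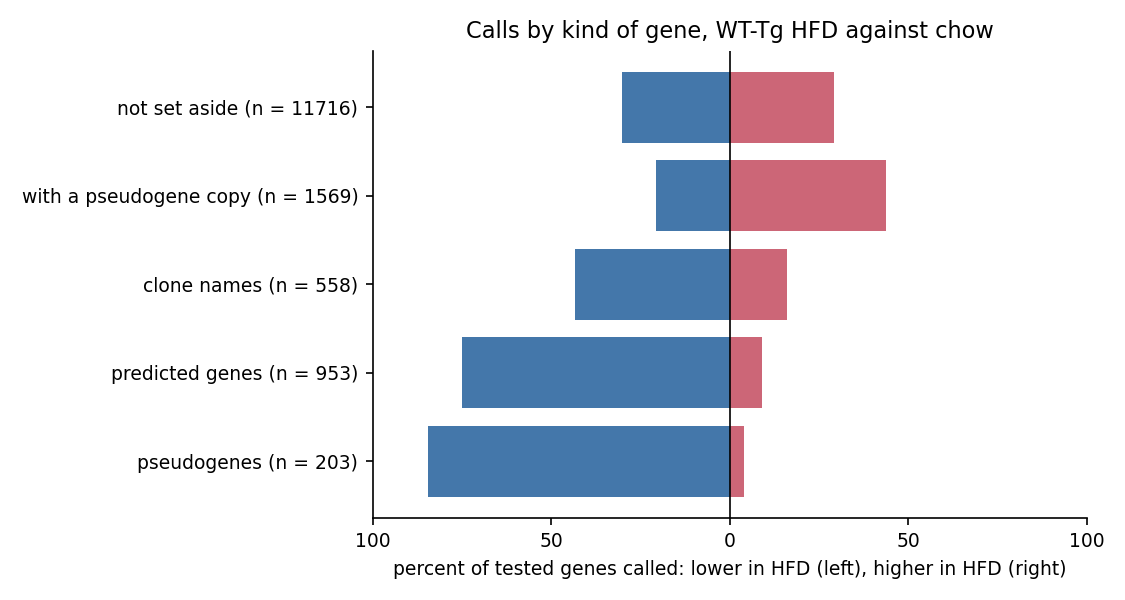
Percent of tested genes called in WT-Tg HFD against WT-Tg chow, by kind of gene: bars to the left are genes lower in HFD and bars to the right genes higher in HFD (edgeR, adjusted p below 0.05). Genes not set aside were split 30.1% lower and 29.3% higher, while 84.7% of pseudogenes and 75.0% of predicted genes were lower.

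The tissue labels were checked against adipocyte markers. Adipoq, the gene of adiponectin, was at 1298, 1792 and 4197 CPM on chow (lowest, median and highest of the 6 libraries, as in all such triplets below) and at 1941, 2556 and 3114 CPM on HFD. Fabp4, the fatty acid carrier of adipocytes, was at 7512, 11293 and 22549 CPM on chow and 17010.2, 18893 and 23366 CPM on HFD. Both are high in every library. RNA of other cells also varied. The B lymphocyte score, the mean log2 CPM of a marker list, was over 4 in chow libraries 1, 2, 3 and 4 and in HFD library 3, called lymphocyte-rich below, and lay between 0.501 and 2.05 in the other 7. The skeletal muscle score ran from 0.730 to 7.61 on chow and from 0.602 to 3.60 on HFD. Since 4 of 6 chow libraries but 1 of 6 HFD libraries were lymphocyte-rich, list counts are also given without those 5 libraries, which leaves 2 chow and 5 HFD libraries. In that smaller comparison 26.1% of 12218 genes not set aside were higher and 21.9% lower, and list counts from it are read against those shares. Those 2 chow libraries, 5 and 6, had muscle scores of 5.82 and 7.61, above every HFD library, so the counts without lymphocyte-rich libraries compare muscle-rich chow samples with HFD, and the part of muscle RNA in them was not tested. In bulk tissue, fewer cells of a type and less RNA per cell cannot be told apart.

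**Figure D2:**
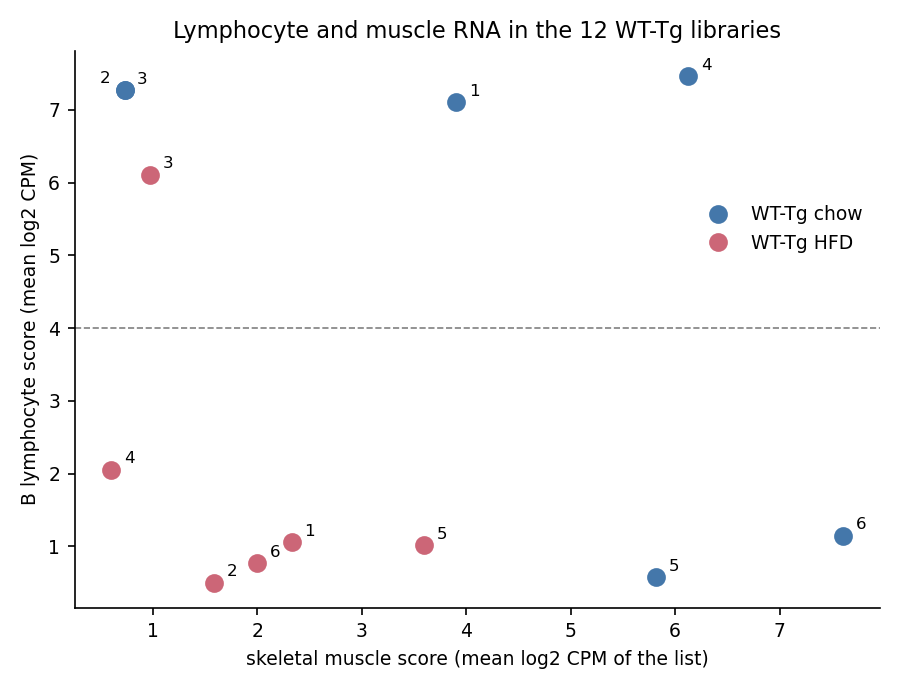
B lymphocyte score against skeletal muscle score, both the mean log2 CPM of a marker list, for the 12 WT-Tg libraries, with library numbers beside the points and the limit of 4 for a lymphocyte-rich library as a dashed line. Chow libraries 1 to 4 and HFD library 3 lie above the line, and chow library 6 has the highest muscle score, 7.61.

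Prkag1, the gene of the γ1 subunit itself (ENSMUSG00000067713, chromosome 15, 98812797 to 98831521, minus strand, in GRCm38 as for all positions below), was at 328, 386 and 579 CPM on chow and 319, 342 and 368 CPM on HFD. The groups overlapped and the gene was not called (log2 fold change -0.28, SE 0.14, adjusted p = 0.0900). Other genes overlap 43.7% of its exon length, and whether transgene reads were counted on it is not given in the sources used here, so its level does not check the labels. Of the 7 AMPK subunit genes 1 was higher, the catalytic subunit Prkaa2, and 1 lower, the β1 subunit Prkab1, with a list median of -0.13. The higher call was lost when the set-aside genes were removed before the fit (0 higher, 1 lower) and with the B lymphocyte score as a covariate (0 higher, 2 lower), and without the lymphocyte-rich libraries 0 were higher and 4 lower (median -0.30). With the muscle score as a covariate 3 were higher and 1 lower (median 0.16).

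Genes whose expression is known to follow the growth of fat mass were mostly higher in HFD. Of the 9 genes of that list 8 were tested, and 7 were higher in HFD and 0 lower (87.5% against 29.3% of all genes), with a median log2 fold change of 2.98, and the count was again 7 higher and 0 lower without the lymphocyte-rich libraries, at a median of 2.36. In D316A-Tg mice, whose libraries are not among these 12, the count was 7 higher and 0 lower of 8 as well, with a median of 2.43, where 14.2% of genes were higher and 12.0% lower. The list was drawn up with earlier results of these data known, so its direction is no independent evidence. The exception in WT-Tg was the lipid hydrolase Naaa (log2 fold change -0.17, SE 0.14, adjusted p = 0.296).

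Mest, an imprinted gene linked to adipocyte enlargement (ENSMUSG00000051855, chromosome 6, 30723547 to 30748465, plus strand), was at 10.3, 19.2 and 107 CPM on chow and 1193, 1576 and 1985 CPM on HFD. Every HFD library was more than 10 times above the highest chow library, a 45.7-fold difference in the fit (log2 fold change 5.52, SE 0.65, adjusted p = 1.66e-05), although other genes overlap 23.1% of its exons. Leaving out chow library 5 raised its log2 fold change to 6.27. Npr3, the clearance receptor for natriuretic peptides (ENSMUSG00000022206, chromosome 15, 11839896 to 11907287, minus strand), was at 147, 283 and 594 CPM on chow and 2245, 2671 and 3263 CPM on HFD. Here too the groups were far apart (log2 fold change 3.05, SE 0.34, adjusted p = 1.06e-05). Sfrp5, a secreted inhibitor of Wnt signalling, was at 2.61, 11.9 and 40.6 CPM on chow and at 103, 189 and 289 CPM on HFD, without overlap (log2 fold change 3.57, SE 0.57, adjusted p = 0.000188). Nkd1, an intracellular inhibitor of the same pathway, rose 6.54-fold. Bmp3, a ligand of the bone morphogenetic protein family, rose 6.14-fold. Fgf1, a growth factor of fat remodelling, went from 11.6, 15.2 and 39.7 CPM on chow to 127, 153 and 188 CPM on HFD (log2 fold change 2.93, SE 0.28, adjusted p = 3.09e-06). Trp53inp2, a protein of autophagy, rose 8.19-fold.

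Adipokines moved in both directions. Of 23 genes of secreted fat factors 12 were higher and 2 lower (52.2% and 8.70%), with a median log2 fold change of 1.10. Without the lymphocyte-rich libraries 10 were higher and 5 lower, with a median of 0.20. Lep, the gene of leptin, the hormone that signals fat stores to the brain (ENSMUSG00000059201, chromosome 6, 29060220 to 29073877, plus strand), was at 241, 381 and 734 CPM on chow and 5469, 5953 and 8619 CPM on HFD. The lowest HFD library was more than 7 times above the highest chow library, a 14.6-fold difference (log2 fold change 3.87, SE 0.30, adjusted p = 4.51e-07). Apln, the gene of the peptide apelin, was at 2.44, 3.45 and 6.75 CPM on chow and 12.9, 15.2 and 19.5 CPM on HFD (log2 fold change 2.06, SE 0.24, adjusted p = 1.55e-05). The groups were again separate.

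Cfd, which encodes adipsin, a complement protease secreted by adipocytes (ENSMUSG00000061780, chromosome 10, 79890853 to 79892655, plus strand), went the other way. It was at 5737, 6726 and 16954 CPM on chow and at 396, 928 and 1454 CPM on HFD, a 10.7-fold lower level (log2 fold change -3.41, SE 0.45, adjusted p = 4.12e-05). The lowest chow library was well above the highest HFD library. Adipoq was not called (log2 fold change 0.08, SE 0.30, adjusted p = 0.836), and its fold change was below 0 in 5 of the alternative fits.

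**Figure D3:**
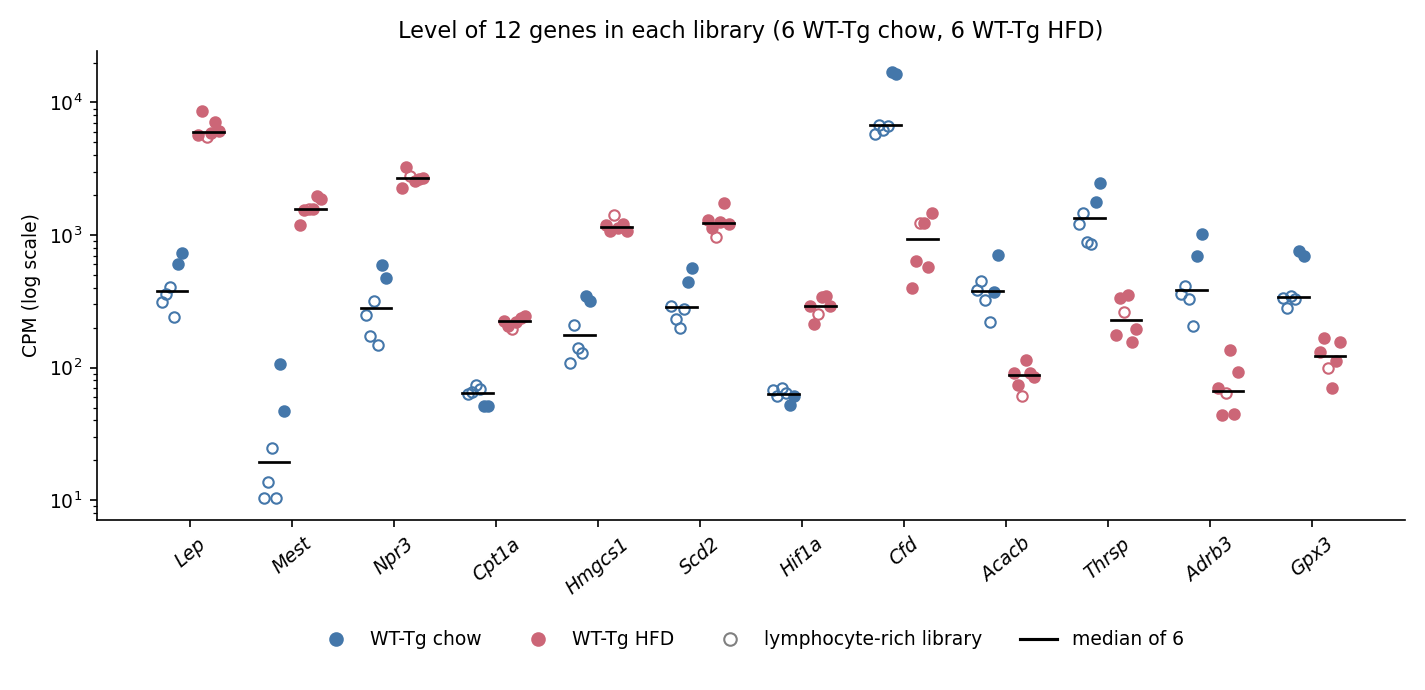
CPM on a log scale of 12 genes in each of the 6 WT-Tg chow (blue) and 6 WT-Tg HFD (red) libraries, with the median of each group as a black line and lymphocyte-rich libraries as open circles. Lep, Mest, Npr3, Cpt1a, Hmgcs1, Scd2 and Hif1a are higher and Cfd, Acacb, Thrsp, Adrb3 and Gpx3 lower in HFD, without overlap between the groups.

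Genes of mature adipocytes as a whole moved less. Of 19 members 6 were higher and 2 lower (31.6% and 10.5%), with a median of 0.49, and 5 and 4 without the lymphocyte-rich libraries (median -0.10). Cd36, the fatty acid transporter, was at 944, 1537 and 3562 CPM on chow and 5317, 6728 and 7179.7 CPM on HFD (log2 fold change 1.69, SE 0.31, adjusted p = 0.000531). Dgat2, the enzyme of the last step of triglyceride synthesis, rose 2.56-fold, and Trarg1, a protein of the insulin-regulated glucose transporter vesicle, 2.61-fold. Slc2a4, that glucose transporter itself, was at 124, 206 and 408 CPM on chow and 111, 147 and 182 CPM on HFD. Its groups overlapped, and its call (log2 fold change -0.68, SE 0.26, adjusted p = 0.0384) was lost when any of 8 single libraries was left out (highest adjusted p = 0.0975). Plin1 (0.49), Lipe (0.30) and Pparg (0.36), the main droplet coat protein, hormone-sensitive lipase and the adipocyte master regulator, were not called, with log2 fold changes as given. Cidec, a lipid droplet fusion protein, rose 1.81-fold with all libraries, and had an adjusted p of 0.146 without the lymphocyte-rich ones.

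Lipogenic genes moved in both directions, as did genes at large. Of 21 lipogenic genes 6 were higher and 8 lower (28.6% and 38.1%, against 29.3% and 30.1% of all genes), with a median of -0.17. Without the lymphocyte-rich libraries 3 were higher and 11 lower with a median of -0.61, where 26.1% of all genes were higher and 21.9% lower. Acly, ATP citrate lyase, which makes cytosolic acetyl-CoA (ENSMUSG00000020917, chromosome 11, 100476353 to 100528000, minus strand), was at 436, 1036 and 2351 CPM on chow and 270.4, 338 and 382 CPM on HFD (log2 fold change -1.79, SE 0.33, adjusted p = 0.000615). Acacb, acetyl-CoA carboxylase 2, a substrate of AMPK (ENSMUSG00000042010, chromosome 5, 114146535 to 114250761, plus strand), was at 222, 379 and 709.8 CPM on chow and 60.9, 88.0 and 115 CPM on HFD (log2 fold change -2.25, SE 0.26, adjusted p = 1.33e-05). For both genes no HFD library reached the lowest chow library. Fasn, fatty acid synthase, was at 4518, 7687 and 15086 CPM on chow and 3332, 3747 and 4603 CPM on HFD, with a slight overlap (log2 fold change -1.16, SE 0.30, adjusted p = 0.00514). Thrsp, a nuclear regulator of lipogenesis (ENSMUSG00000035686, chromosome 7, 97412938 to 97417730, minus strand), was at 859, 1335 and 2472 CPM on chow and 155, 229 and 353 CPM on HFD (log2 fold change -2.55, SE 0.32, adjusted p = 2.67e-05). It was lower in each HFD library than in any chow library. Elovl6, which extends palmitate, also had a negative log2 fold change (log2 fold change -2.52, SE 0.39, adjusted p = 0.000141) but has a pseudogene copy, so its value is uncertain.

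Scd1, stearoyl-CoA desaturase 1, had more counts than any other gene in each HFD library. It was at 11635, 21486 and 41416 CPM on chow and 41948, 49955 and 58042 CPM on HFD (log2 fold change 1.06, SE 0.31, adjusted p = 0.00995). The lowest HFD library lay just above the highest chow library, and the call was lost without the lymphocyte-rich libraries (adjusted p = 0.0625). Scd2, its paralog, was at 200.1, 286 and 568 CPM on chow and 972, 1229 and 1745 CPM on HFD (log2 fold change 1.91, SE 0.26, adjusted p = 6.16e-05). Fads3, a fatty acid desaturase of sphingolipids, was at 125, 249.9 and 312 CPM on chow and 731, 962 and 996 CPM on HFD (log2 fold change 1.92, SE 0.21, adjusted p = 9.46e-06). For both, the groups were clearly apart.

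Genes of cholesterol synthesis were mostly higher in HFD. Of 20 tested genes 13 were higher and 1 lower (65.0% and 5.00%), with a median of 0.65, and without the lymphocyte-rich libraries 10 were higher and 2 lower with a median of 0.46. Hmgcs1, the synthase that makes HMG-CoA (ENSMUSG00000093930, chromosome 13, 119690379 to 119708260, plus strand), was at 108, 175 and 345 CPM on chow and 1065, 1159 and 1405 CPM on HFD, 5.67-fold higher (log2 fold change 2.50, SE 0.29, adjusted p = 1.73e-05). No chow library came near the lowest HFD library, and other genes overlap 12.1% of its exons. Further along, Lss, which closes the sterol rings, was at 29.0, 30.7 and 61.4 CPM on chow and 81.3, 99.8 and 125 CPM on HFD (log2 fold change 1.42, SE 0.20, adjusted p = 6.60e-05). Hsd17b7, a sterol ketoreductase (ENSMUSG00000026675, chromosome 1, 169949535 to 169969241, minus strand), was at 6.87, 7.87 and 9.44 CPM on chow and 24.1, 30.6 and 35.6 CPM on HFD (log2 fold change 1.95, SE 0.12, adjusted p = 5.09e-08). Sqle, squalene epoxidase, rose 1.57-fold with all libraries and had an adjusted p of 0.350 without the lymphocyte-rich ones. The lower member was Srebf2, the transcription factor of the pathway (log2 fold change -0.92, SE 0.19, adjusted p = 0.00147).

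The sterol-responsive promoter letters TCACNCCAC, searched on both strands of the 250 bases before the RefSeq start (GRCm38.p6), were found for 1 of 18 members of the list with a promoter entry and for 1.22% of all 27025 genes with one. That member was Hmgcs1, the most changed of them, and its stretch is shown on the strand of the gene, at chr13:119690143-119690262, with the match in capitals.
Hmgcs1: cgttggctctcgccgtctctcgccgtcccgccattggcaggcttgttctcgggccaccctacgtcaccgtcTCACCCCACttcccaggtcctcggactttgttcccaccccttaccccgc
The match is a description of these letters, and nothing was measured at the promoter.

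Of 18 genes of triglyceride synthesis 9 were higher and 2 lower (median 0.61), and 6 and 4 without the lymphocyte-rich libraries (median 0.38). Gk, glycerol kinase (ENSMUSG00000025059, chromosome X, 85701937 to 85776819, minus strand), was at 6.47, 10.1 and 11.3 CPM on chow and 34.4, 47.7 and 61.0 CPM on HFD (log2 fold change 2.33, SE 0.17, adjusted p = 2.25e-07). Mogat2, which acylates monoacylglycerol, was at 0.918, 1.74 and 3.13 CPM on chow and 11.7, 17.4 and 25.9 CPM on HFD (log2 fold change 3.28, SE 0.32, adjusted p = 3.59e-06). Both were higher in every HFD library than in any chow library. Pck1, which supplies glycerol phosphate from pyruvate, was lower, at 1081, 2293 and 4405 CPM on chow and 454, 858 and 1159 CPM on HFD (log2 fold change -1.65, SE 0.35, adjusted p = 0.00158). Its highest HFD library overlapped the lowest chow library.

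Genes of lipolysis and its control moved in both directions. Of 19 members 8 were higher and 3 lower (42.1% and 15.8%, median 0.50), and 6 and 4 without the lymphocyte-rich libraries (median 0.09). Adrb3, the β3-adrenergic receptor that starts lipolysis (ENSMUSG00000031489, chromosome 8, 27225776 to 27250616, minus strand), was at 207, 385 and 1015 CPM on chow and 43.5, 67.0 and 136 CPM on HFD. The groups did not overlap, and the receptor was 6.69-fold lower (log2 fold change -2.74, SE 0.42, adjusted p = 0.000143), with 24.9% of its exons inside other genes. Hilpda, an inhibitor of the main triglyceride lipase, was at 7.62, 9.40 and 13.5 CPM on chow and 38.0, 67.9 and 119.5 CPM on HFD (log2 fold change 2.86, SE 0.25, adjusted p = 1.17e-06). Plin2, a droplet coat protein, rose 2.70-fold. Prkar2b, the regulatory subunit of protein kinase A in fat, rose 3.16-fold.

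Oxidation genes showed little common movement. Of 25 fatty acid oxidation genes 9 were higher and 2 lower (36.0% and 8.00%, median 0.33), and 3 and 6 without the lymphocyte-rich libraries (median -0.01). Cpt1a, the carnitine transferase that admits fatty acids to mitochondria (ENSMUSG00000024900, chromosome 19, 3322334 to 3385733, plus strand), was at 51.1, 64.1 and 73.9 CPM on chow and 195, 224 and 245 CPM on HFD. It was 3.56-fold higher with narrow spread in both groups (log2 fold change 1.83, SE 0.11, adjusted p = 4.31e-08). Decr1, a mitochondrial reductase, rose 1.78-fold, and its adjusted p without the lymphocyte-rich libraries was 0.0511. Of 44 nuclear-encoded subunits of oxidative phosphorylation 1 was higher and 8 lower (2.27% and 18.2%, median -0.14), both shares below those of all genes in the 12 libraries. The counts were 0 higher and 26 lower without the lymphocyte-rich libraries (median -0.48), where 26.1% of all genes were higher and 21.9% lower, so the lower members were then above the share of all genes. With the B lymphocyte score as a covariate 0 were higher and 16 lower (median -0.33). Taking the muscle score as the covariate instead gave 2 higher and 6 lower (median -0.01). A further 32 subunits were set aside. Ndufa6 of complex I was at 89.4, 122 and 158 CPM on chow and 64.7, 69.3 and 86.1 CPM on HFD (log2 fold change -0.75, SE 0.14, adjusted p = 0.000540). Ndufa1 of the same complex fell 1.69-fold. In the TCA cycle 3 of 17 genes were higher and 1 lower (median 0.07), and 1 and 3 without the lymphocyte-rich libraries (median -0.26). Idh3a, a subunit of isocitrate dehydrogenase, rose 1.99-fold, and Sdhb, a subunit of succinate dehydrogenase, was lower (log2 fold change -0.47, SE 0.18, adjusted p = 0.0370), a call lost without any of 8 single libraries (highest adjusted p = 0.0913).

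Most transcripts of the mitochondrial genome that were not set aside were higher in HFD. Of 8 not set aside 6 were higher and 0 lower, with a median of 2.43, and 5 and 0 without the lymphocyte-rich libraries (median 2.11). With those set aside, 8 of 13 were higher and 0 lower (median 1.10). The summed level of all 13 overlapped, at 29487, 53627 and 80137 CPM on chow and 51940, 57768 and 78941 CPM on HFD. The 2 genes named next are a very small part of that sum. mt-Co3, a subunit of cytochrome oxidase, was at 0.454, 0.600 and 0.750 CPM on chow and 14.6, 14.8 and 24.4 CPM on HFD (log2 fold change 4.76, SE 0.21, adjusted p = 2.67e-09). mt-Co2, of the same enzyme, was at 0.927, 1.34 and 2.31 CPM on chow and 16.5, 18.9 and 27.8 CPM on HFD (log2 fold change 3.76, SE 0.22, adjusted p = 3.92e-08). By contrast mt-Co1, of the same enzyme and set aside here, had more counts than any other gene in chow libraries 2, 3 and 4. How reads that fit both this genome and its nuclear copies were counted in each table is not given in the sources used here, and the part of the tables cannot be told apart from that of the cohorts.

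Genes typical of brown and beige adipocytes were split, with 6 of 24 higher and 8 lower (25.0% and 33.3%, median -0.03), close to the shares of all genes, and 4 higher and 6 lower without the lymphocyte-rich libraries (median -0.45). Ucp1, which uncouples respiration in brown fat, was at 2.67, 20.4 and 306 CPM on chow and 24.2, 95.8 and 383 CPM on HFD. It spread over more than 10-fold within both groups and was not called (log2 fold change 0.67, SE 1.01, adjusted p = 0.582). The droplet protein gene Cidea, high in brown fat, was at 62.7, 193 and 279 CPM on chow and 25.1, 35.6 and 119.6 CPM on HFD (log2 fold change -1.72, SE 0.47, adjusted p = 0.00735). Esrrg, a nuclear receptor of oxidative tissues, was at 1.56, 1.90 and 3.22 CPM on chow and 10.8, 11.6 and 17.9 CPM on HFD, with no overlap (log2 fold change 2.53, SE 0.22, adjusted p = 1.46e-06). Ppargc1b, a coactivator of mitochondrial genes, was 2.16-fold lower.

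Genes of sugar uptake and glycolysis that were not set aside were more often lower than higher. Of 21 members 3 were higher and 10 lower (14.3% and 47.6%, median -0.50), and 3 and 8 without the lymphocyte-rich libraries (median -0.15). A further 8 members were set aside, and with them 7 of 29 were higher and 10 lower (median -0.15). The summed level of all 29 was at 4064, 5544 and 9470 CPM on chow and 7121, 7707 and 8869 CPM on HFD. Slc2a5, the fructose transporter (ENSMUSG00000028976, chromosome 4, 150119283 to 150144169, plus strand), was at 6.33, 16.1 and 38.9 CPM on chow and 0, 0.226 and 0.326 CPM on HFD. It was readily measured in each chow library and near the limit of detection on HFD (log2 fold change -6.62, SE 0.64, adjusted p = 2.99e-06). Pdk1, a kinase that inhibits pyruvate dehydrogenase, was at 79.8, 105 and 144 CPM on chow and 31.3, 37.3 and 42.1 CPM on HFD (log2 fold change -1.52, SE 0.15, adjusted p = 3.31e-06). Pfkfb4, which sets the level of a glycolytic activator, rose 2.12-fold. In insulin signalling 8 of 17 genes were higher and 3 lower (47.1% and 17.6%, median 0.35), and 6 and 1 without the lymphocyte-rich libraries (median 0.28). Grb14, an adaptor that inhibits the insulin receptor (ENSMUSG00000026888, chromosome 2, 64912476 to 65024987, minus strand), was at 20.4, 36.4 and 82.7 CPM on chow and 158, 177 and 251 CPM on HFD (log2 fold change 2.05, SE 0.33, adjusted p = 0.000213). Pdpk1, the kinase that activates Akt, rose 2.06-fold. Neither gene overlapped between the groups.

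Hypoxia-responsive genes divided, with 6 of 17 higher and 5 lower (35.3% and 29.4%, median 0.24), close to the shares of all genes. Without the lymphocyte-rich libraries 6 were higher and 3 lower (median -0.018). Hif1a, the oxygen-regulated transcription factor, was at 52.4, 63.0 and 70.4 CPM on chow and 214, 292 and 345 CPM on HFD (log2 fold change 2.20, SE 0.13, adjusted p = 3.55e-08). Adm, the vasodilator peptide adrenomedullin and a known target of it, was at 3.50, 4.41 and 5.19 CPM on chow and 8.52, 14.7 and 21.8 CPM on HFD (log2 fold change 1.76, SE 0.20, adjusted p = 1.48e-05). Both were higher in all HFD libraries. Of 25 genes of glutathione and antioxidant defence 14 were higher and 2 lower (56.0% and 8.00%, median 0.41), and 7 and 5 without the lymphocyte-rich libraries (median 0.07). Sod3, the extracellular superoxide dismutase, rose 3.36-fold. The 2 lower genes were glutathione peroxidases: Gpx3, the secreted form, was at 279.5, 341 and 764 CPM on chow and 70.5, 121 and 169 CPM on HFD (log2 fold change -1.90, SE 0.30, adjusted p = 0.000208), and Gpx8, of the endoplasmic reticulum, was 4.77-fold lower. Of 25 genes of endoplasmic reticulum stress 11 were higher and 3 lower (44.0% and 12.0%, median 0.11), and 10 and 4 without the lymphocyte-rich libraries (median 0.33). Among the higher ones were the stress sensor Atf6 (1.69-fold higher) and Edem1 (1.90-fold) and Sel1l (1.86-fold) of protein degradation.

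**Figure D4:**
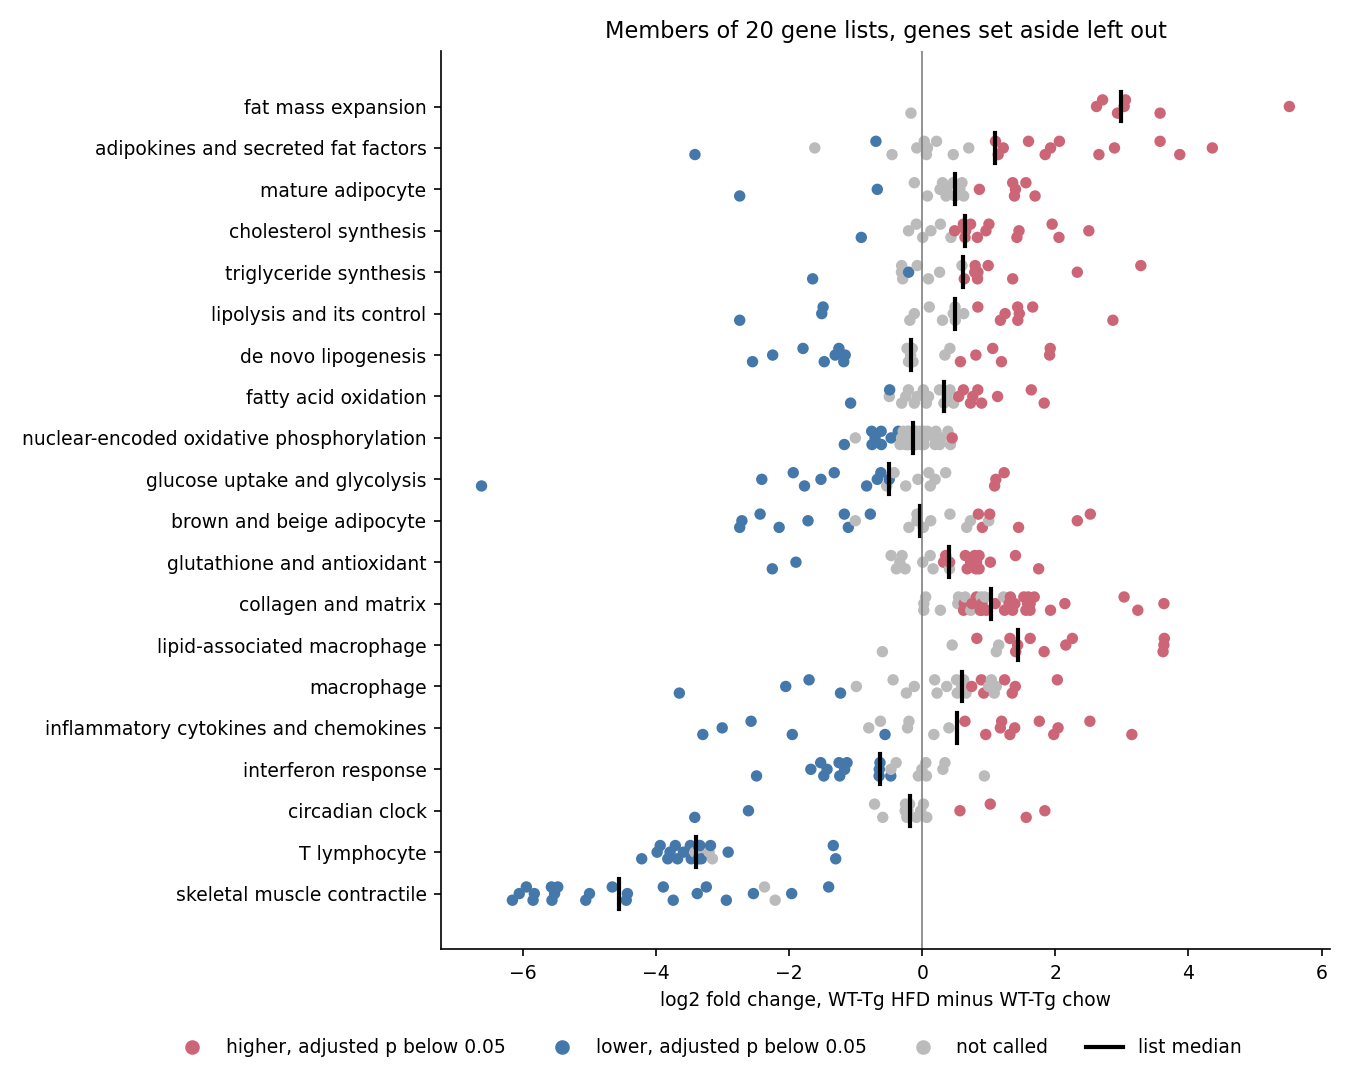
Log2 fold change (WT-Tg HFD minus WT-Tg chow, 6 libraries each) of every described member of 20 gene lists, coloured by call, with the list median as a black bar. The matrix and lipid-associated macrophage members called were all higher and the interferon, T lymphocyte and muscle members called all lower, while lipogenic genes lie on both sides.

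Macrophages that take up lipid were represented by higher levels of their genes. Of 15 genes of lipid-associated macrophages 11 were higher and 0 lower (73.3%), with a median of 1.43, and 14 and 0 without the lymphocyte-rich libraries (median 1.62). Lipa, the lysosomal acid lipase, was at 63.2, 64.1 and 91.5 CPM on chow and 105, 165 and 256 CPM on HFD (log2 fold change 1.32, SE 0.20, adjusted p = 0.000124). Dcstamp, a fusion receptor of macrophages, was at 0.0658, 0.197 and 1.02 CPM on chow and 2.59, 4.77 and 9.09 CPM on HFD (log2 fold change 3.64, SE 0.56, adjusted p = 0.000159). For both genes, no HFD library was as low as a chow library. Trem2, the lipid receptor of these cells, had a median of 7.95 CPM on chow and 39.8 CPM on HFD. Its groups overlapped (log2 fold change 2.16, SE 0.79, adjusted p = 0.0311), and the call was lost without chow library 2, HFD library 1 or HFD library 5 (highest adjusted p = 0.0644) and with the B lymphocyte score as a covariate (adjusted p = 0.129).

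General macrophage genes were less uniform, with 7 of 27 higher and 4 lower (25.9% and 14.8%, median 0.59), and 13 and 0 without the lymphocyte-rich libraries (median 1.09). Adgre1, which encodes F4/80, was at 8.55, 18.5 and 44.2 CPM on chow and 35.5, 69.7 and 166 CPM on HFD (log2 fold change 2.03, SE 0.44, adjusted p = 0.00174). Cd68, a lysosomal protein of macrophages, rose 2.55-fold, and Mrc1, the mannose receptor, 2.64-fold. Each of these overlapped between groups. Itgax, which encodes CD11c, was at 4.56, 22.9 and 46.3 CPM on chow and 18.5, 46.6 and 78.5 CPM on HFD and was not called (log2 fold change 1.11, SE 0.53, adjusted p = 0.0865). Without the lymphocyte-rich libraries its log2 fold change was 3.41 (adjusted p = 0.000619). Timd4, a receptor of resident macrophages, was lower with all libraries (log2 fold change -3.65, SE 1.05, adjusted p = 0.00952), and at -4.90 without HFD library 3. Its call was lost without the lymphocyte-rich libraries (log2 fold change -0.18, adjusted p = 0.668) and with the B lymphocyte score as a covariate (-0.84, adjusted p = 0.0927).

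Cytokine genes were higher in 11 of 22 cases and lower in 5 (median 0.52), and in 10 and 2 without the lymphocyte-rich libraries (median 0.87). Ccl2, the monocyte attractant (ENSMUSG00000035385, chromosome 11, 82035571 to 82037453, plus strand), was at 1.31, 2.26 and 3.63 CPM on chow and 7.13, 11.5 and 25.1 CPM on HFD (log2 fold change 2.52, SE 0.34, adjusted p = 5.64e-05). Ccl7, its neighbour in the genome with a like function, rose 3.93-fold. Tnf was at 0.398, 9.24 and 11.8 CPM on chow and 0.640, 1.05 and 2.10 CPM on HFD (log2 fold change -2.57, SE 0.71, adjusted p = 0.00800). Its log2 fold change was 0.84 without the lymphocyte-rich libraries (adjusted p = 0.147). S100a8, a calcium-binding alarmin of neutrophils, was at 0.790, 1.13 and 2.16 CPM on chow and 15.5, 19.2 and 31.5 CPM on HFD (log2 fold change 4.10, SE 0.30, adjusted p = 3.02e-07). It was the only member called higher among 15 genes of neutrophils, mast and dendritic cells, of which 8 were lower (median -1.15). Without the lymphocyte-rich libraries 1 of the 15 was higher and 3 were lower (median 0.08).

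Of the interferon response genes more were lower than among all genes. Of 22 members 0 were higher and 13 lower (59.1% against 30.1% of all genes lower), with a median of -0.64, and 0 and 8 without the lymphocyte-rich libraries (median -0.48). Stat2, a signal transducer of type I interferon (ENSMUSG00000040033, chromosome 10, 128270559 to 128292849, plus strand), was at 57.9, 74.1 and 95.4 CPM on chow and 25.0, 33.0 and 42.3 CPM on HFD (log2 fold change -1.17, SE 0.14, adjusted p = 2.04e-05). Irf7, the factor that amplifies the response (ENSMUSG00000025498, chromosome 7, 141262706 to 141266481, minus strand), was at 40.9, 57.4 and 78.9 CPM on chow and 15.4, 19.9 and 30.4 CPM on HFD (log2 fold change -1.43, SE 0.18, adjusted p = 2.73e-05). Neither overlapped between groups. The immunoproteasome subunits were lower as well: Psmb8, overlapped over 14.7% of its exons, was 2.88-fold lower, and Psmb9 2.79-fold. With the B lymphocyte score as a covariate 0 were higher and 12 lower (median -0.59).

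The core of the interferon-stimulated response element, searched on both strands as GAAA, any 2 bases and GAAA again, lay in the 250 bases before the start of 12 of 21 list members with a promoter entry, against 3.46% of all genes. Among the 10 members called lower that have an entry, 5 held it. The promoters of 3 lower genes, Stat2, the immunity GTPases Igtp (-1.25) and Irgm1 (-1.13), and of Ifit3, which was not called (0.34), are shown to compare them, with log2 fold changes in parentheses and matches in capitals. They lie at chr10:128270248-128270367 (plus), chr11:58199436-58199555 (plus), chr11:48871421-48871540 (minus) and chr19:34583333-34583456 (plus), on the strand of each gene. In Stat2 and Ifit3 the matches read on the opposite strand, as TTTC, 2 bases and TTTC.
Stat2: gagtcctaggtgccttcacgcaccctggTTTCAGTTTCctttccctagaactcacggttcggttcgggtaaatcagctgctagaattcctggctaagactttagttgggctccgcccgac
Igtp: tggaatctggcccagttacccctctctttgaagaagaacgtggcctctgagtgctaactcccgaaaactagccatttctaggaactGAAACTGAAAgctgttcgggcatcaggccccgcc
Irgm1: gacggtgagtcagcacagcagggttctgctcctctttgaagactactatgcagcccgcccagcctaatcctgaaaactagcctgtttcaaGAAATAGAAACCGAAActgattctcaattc
Ifit3: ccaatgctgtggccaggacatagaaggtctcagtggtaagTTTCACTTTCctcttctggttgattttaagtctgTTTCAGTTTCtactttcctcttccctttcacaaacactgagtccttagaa
The letters stand in the promoters of genes that were called lower and of one that was not, and capitals longer than the motif are overlapping matches.

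Genes of the extracellular matrix were higher or not called. Of 38 genes 27 were higher and 0 lower (71.1%), with a median of 1.03, and 16 and 1 without the lymphocyte-rich libraries (median 0.47). Col12a1, a collagen that binds fibrils (ENSMUSG00000032332, chromosome 9, 79598991 to 79718831, minus strand), was at 3.42, 4.76 and 7.89 CPM on chow and 29.1, 39.1 and 88.1 CPM on HFD (log2 fold change 3.24, SE 0.30, adjusted p = 2.29e-06). Lox, the enzyme that cross-links collagen, was at 25.4, 39.4 and 106 CPM on chow and 347, 435 and 623 CPM on HFD (log2 fold change 3.03, SE 0.37, adjusted p = 2.16e-05). In both, all HFD libraries exceeded all chow libraries. Thbs1, thrombospondin 1, rose 4.42-fold, and Bgn, the proteoglycan biglycan, 2.47-fold. The abundant fibrillar collagens were less clear. Col3a1 was at 922, 1173 and 3081 CPM on chow and 1885, 2510.3 and 4772 CPM on HFD, with overlap (log2 fold change 0.96, SE 0.36, adjusted p = 0.0363), and its call was lost without any of 6 single libraries (highest adjusted p = 0.0849) and without the lymphocyte-rich ones (0.410). Col6a3, of the microfibrils around adipocytes, rose 1.84-fold, at an adjusted p of 0.143 without those libraries. Col1a1 (log2 fold change 0.88, SE 0.38, adjusted p = 0.0609) and the protease inhibitor Timp1 (log2 fold change 1.22, SE 0.55, adjusted p = 0.0688) were not called.

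Genes of adipocyte progenitors and fibroblasts were higher in 8 and lower in 4 of 22 cases (36.4% and 18.2%, median 0.35), and endothelial genes in 1 and 2 of 21 (median 0.11). Without the lymphocyte-rich libraries the counts were 3 and 1 (median 0.15) and 0 and 6 (median -0.34). Sema3c, a secreted semaphorin of stromal cells, was at 5.45, 7.84 and 29.5 CPM on chow and 96.5, 121 and 154 CPM on HFD (log2 fold change 3.27, SE 0.42, adjusted p = 3.61e-05). Zfp423, a transcription factor of committed preadipocytes, rose 2.65-fold. Both had separate groups.

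Of 17 clock genes 4 were higher and 2 lower (median -0.19), and 6 and 3 without the lymphocyte-rich libraries, where the median was 0.58. Rora, which encodes the nuclear receptor RORα, was at 16.6, 24.1 and 43.1 CPM on chow and 79.1, 96.9 and 121 CPM on HFD (log2 fold change 1.84, SE 0.22, adjusted p = 2.28e-05). It was higher in every HFD library than in any chow library. Clock rose 2.95-fold, and Npas2, its paralog, was 6.11-fold lower. Arntl (log2 fold change -0.59, SE 0.29, adjusted p = 0.0884) and Dbp (log2 fold change -0.72, SE 0.54, adjusted p = 0.265) were not called, and the hour of tissue collection is not given in the sources used here. Of 23 immediate early genes 6 were higher and 10 lower (26.1% and 43.5%, median -0.65), and 4 and 2 without the lymphocyte-rich libraries (median -0.02). Klf6 rose 2.23-fold and Atf3, induced by stress, 4.07-fold.

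Markers of cells other than adipocytes moved with the cohorts. Of 22 T lymphocyte genes 0 were higher and 18 lower, with a median of -3.39, and 1 and 0 of the 21 testable without the lymphocyte-rich libraries (median 0.00). The summed level of that list ran from 54.8 to 2673 CPM on chow and from 70.0 to 736 CPM on HFD. Zap70, a kinase of the T cell receptor, was at 1.13, 45.6 and 51.3 CPM on chow and 0.565, 1.01 and 10.6 CPM on HFD. Cd37, a tetraspanin of B cells, was at 9.13, 333 and 387 CPM on chow and 13.2, 19.9 and 99.4 CPM on HFD. In both the ranges overlapped, since chow libraries 5 and 6 were low and HFD library 3 high. Cd79a of the B cell receptor, uncertain for its pseudogene copy, was not called (log2 fold change -2.97, SE 1.71, adjusted p = 0.148). Marco, a scavenger receptor of lymph node macrophages, was at 1.19, 99.5 and 215 CPM on chow and 3.59, 4.08 and 31.9 CPM on HFD. Leaving out HFD library 3 moved the log2 fold changes to -5.23 for Zap70 (-3.68 with all libraries), -3.69 for Cd37 (-2.87) and -4.71 for Marco (-3.56). When all 5 lymphocyte-rich libraries were left out, Zap70 was no longer called (adjusted p = 0.241), while Cd37 and Marco had positive log2 fold changes (0.87 and 1.67, adjusted p = 0.0365 and 0.000613). Those 5 were chosen by the B lymphocyte score, so smaller lymphocyte differences without them were built in. Glycam1, a ligand of lymph node vessels, had 0 to 1266 counts in a chow library and 0 to 54 in an HFD library and was not tested, although the protocol states that the lymph node was removed. Of 15 cell division genes 1 was higher and 2 lower (median 0.05), and 12 and 0 without the lymphocyte-rich libraries (median 1.72).

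Striated muscle genes were lower in HFD, in 22 of 24 cases with 0 higher and a median of -4.55. Ttn, the giant spring protein titin, was at 3.49, 51.1 and 574 CPM on chow and 0.359, 2.25 and 9.36 CPM on HFD (log2 fold change -5.52, SE 1.29, adjusted p = 0.00287). Without chow library 6 its log2 fold change was -4.05 (adjusted p = 0.00453), and with the muscle score as a covariate it was -2.20 (adjusted p = 0.00104). Acta1, skeletal α-actin, was at 3.12, 155 and 1764 CPM on chow and 9.03, 26.8 and 66.7 CPM on HFD, and its call was lost without chow library 6 (log2 fold change -2.13, adjusted p = 0.0834). Myh4, the fast myosin heavy chain, was at 0, 139.6 and 3812 CPM on chow and 0.924, 6.76 and 39.0 CPM on HFD (log2 fold change -6.16, SE 2.00, adjusted p = 0.0182), and without chow library 6 its log2 fold change was -4.19 (adjusted p = 0.0435). All of them overlapped, and chow libraries 2 and 3 had muscle scores as low as HFD libraries. Without the lymphocyte-rich libraries 0 were higher and 23 lower (median -5.63). With the muscle score as a covariate the list median was 0.00, with 5 higher and 6 lower. That score is made from these genes, and Acta1 and Myh4 had positive log2 fold changes with it (1.20 and 1.34) and with limma voom (0.57 and 1.40).

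Of 14 Schwann cell and neuronal genes 1 was higher and 8 lower (median -1.62), and 0 and 10 of 13 without the lymphocyte-rich libraries. Ngfr, the low-affinity receptor for nerve growth factor, was at 3.44, 6.77 and 8.63 CPM on chow and 0.233, 0.524 and 1.32 CPM on HFD (log2 fold change -3.30, SE 0.41, adjusted p = 2.56e-05). The groups were apart. Genes of mammary and luminal epithelium were higher in 0 and lower in 4 of 6 cases (66.7% against 30.1% of all genes lower, median -1.33). The counts were again 0 and 4 without the lymphocyte-rich libraries (median -1.18). They were 0 and 2 with the B lymphocyte score as a covariate (median -0.87). Among epithelial genes, Epcam was at 0.0663, 3.61 and 8.44 CPM on chow and 0, 0.403 and 1.27 CPM on HFD, a call (log2 fold change -2.93, SE 1.09, adjusted p = 0.0337) lost without any of 7 single libraries and without the lymphocyte-rich ones (adjusted p = 0.936), and Krt8, uncertain for its pseudogene copies, was not called (log2 fold change -0.36, SE 0.76, adjusted p = 0.699). The skin keratin Krt1 was at 0 counts in 5 chow and 4 HFD libraries and at 61 in the highest HFD library. Krt5 and Krt14, keratins of basal epithelium, had at most 13 and 12 counts in a chow library and up to 479 and 203 in an HFD library, and each was at 0 in some libraries of both groups. The part of epithelial and nerve cells in the lists above was not tested.

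The genes with the largest changes included several not known for fat. Lipf, the gastric lipase (ENSMUSG00000024768, chromosome 19, 33961187 to 33976810, plus strand), was at 0.114, 0.319 and 0.938 CPM on chow and 32.9, 69.1 and 103 CPM on HFD (log2 fold change 7.33, SE 0.46, adjusted p = 6.67e-08). Tph2, the neuronal enzyme of serotonin synthesis (ENSMUSG00000006764, chromosome 10, 115078641 to 115185022, minus strand), was at 0.206, 0.482 and 2.06 CPM on chow and 43.6, 115 and 171 CPM on HFD (log2 fold change 7.18, SE 0.59, adjusted p = 8.11e-07). Slc5a7, the choline transporter of nerve endings (ENSMUSG00000023945, chromosome 17, 54273590 to 54299034, minus strand), was at 0.341, 0.472 and 3.13 CPM on chow and 52.0, 105 and 157 CPM on HFD (log2 fold change 6.34, SE 0.66, adjusted p = 5.91e-06). Each of these was near the limit of detection in most chow libraries and readily measured in every HFD library. Itgad, an integrin of macrophages, was at 0.375, 0.866 and 1.70 CPM on chow and 35.3, 106 and 159.7 CPM on HFD (log2 fold change 6.66, SE 0.50, adjusted p = 3.18e-07), with 19.7% of its exons overlapped. In D316A-Tg mice Lipf and Slc5a7 had log2 fold changes of 5.81 and 5.95. Among the 15 largest decreases, apart from Apol7c and Slc2a5, every gene is one known from striated muscle. Apol7c, an apolipoprotein L gene, was at 0, 66.5 and 146 CPM on chow and 0.205, 0.257 and 0.870 CPM on HFD (log2 fold change -7.08, SE 1.46, adjusted p = 0.00126). On chow it was at 83.1, 146, 49.9 and 86.8 CPM in libraries 1 to 4, the lymphocyte-rich ones, and at 0 and 0.188 CPM in libraries 5 and 6, below every HFD library. With the B lymphocyte score as a covariate the call was lost (log2 fold change -2.82, adjusted p = 0.0937), and without those libraries the gene could not be tested.

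Y-linked genes, a check of the libraries, moved in both directions. Ddx3y, an RNA helicase, was at 57.2, 64.3 and 72.7 CPM on chow and 178, 200.2 and 207 CPM on HFD (log2 fold change 1.61, SE 0.08, adjusted p = 6.28e-09). Uty, a histone demethylase, rose 2.42-fold. Kdm5d, another demethylase, was at 22.4, 32.1 and 37.2 CPM on chow and 18.6, 20.6 and 23.3 CPM on HFD (log2 fold change -0.57, SE 0.12, adjusted p = 0.00123), a call lost without the lymphocyte-rich libraries (adjusted p = 0.156). Eif2s3y, a translation factor, differed little (log2 fold change 0.20, SE 0.07, adjusted p = 0.0273), a call lost without chow library 1, chow library 4 or HFD library 3 (highest adjusted p = 0.0893). The lowest library was at 57.2 CPM for Ddx3y and at 18.6 CPM for Kdm5d, so male RNA was present in all 12 WT-Tg libraries.

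The same cohort contrast in D316A-Tg mice called 26.1% of 11506 genes not set aside, 14.2% higher and 12.0% lower, and the contrast differed between the genotypes for 13.3% of 12295. Over all genes tested the second share was 12.9%, or 2080 genes, and leaving out single libraries moved that count to between 1368, without D316A-Tg HFD library 11, and 4304, without D316A-Tg chow library 8. It was 1383 without WT-Tg chow library 3, 3329 without WT-Tg chow library 5 and 3142 without WT-Tg chow library 6. The D316A-Tg counts rest on other libraries, but on the same tables, ages and converters. Of the 8 fat mass genes 0 differed between the genotypes by that test. Of the 20 cholesterol synthesis genes 12 differed, with a D316A-Tg median of -0.33 and 2 higher and 6 lower, against 0.65 in WT-Tg. Lss, for one, had a log2 fold change of 1.42 in WT-Tg and -0.33 in D316A-Tg (difference 1.71, SE 0.35, adjusted p = 0.00512). Gk of triglyceride synthesis had 2.33 in WT-Tg and 0.12 in D316A-Tg (difference 2.17, SE 0.46, adjusted p = 0.00585). These differences between the genotypes, and those below, were not refitted without lymphocyte-rich libraries or with the lymphocyte and muscle scores. The part of lymphocyte and muscle RNA in them was not tested.

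Of 21 lipogenic genes 0 were higher and 10 lower in D316A-Tg (median -1.07), and 9 differed between the genotypes. Acly had a log2 fold change of -1.79 in WT-Tg and -3.52 in D316A-Tg (difference 1.70, adjusted p = 0.0257). Oxidative phosphorylation had a D316A-Tg median of -0.88, with 0 higher and 35 lower of 44, and 10 genes differed. Muscle genes had opposite signs, with 19 of 24 higher in D316A-Tg on HFD (median 4.69) and 21 differing. Matrix genes were higher in 8 and lower in 2 of 38 cases in D316A-Tg (median 0.61), with 1 differing, and interferon genes in 0 and 4 of 22 (median -0.52), with 0 differing. A count of 0 or 1 here does not show that the genotypes respond alike.

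**Figure D5:**
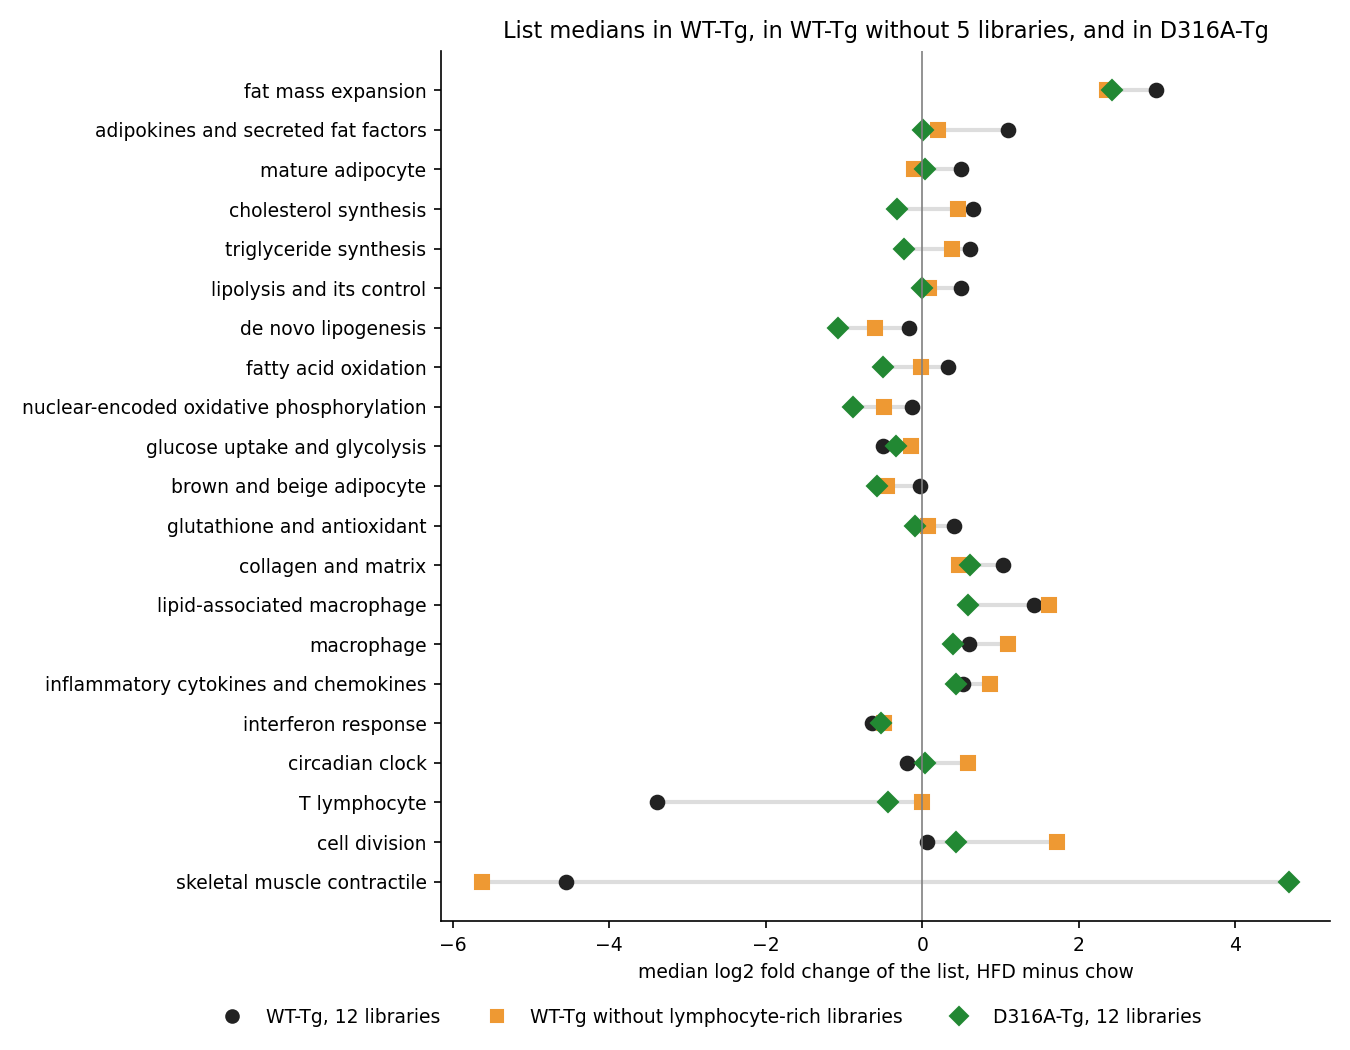
Median log2 fold change, HFD minus chow, of 21 gene lists in WT-Tg (circles, 12 libraries), in WT-Tg without the 5 lymphocyte-rich libraries (squares) and in D316A-Tg (diamonds, 12 libraries). Fat mass genes have medians of 2.98, 2.36 and 2.43, cholesterol synthesis 0.65, 0.46 and -0.33, and muscle genes lie on opposite sides in WT-Tg and D316A-Tg.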

How the data were processed

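RNA of inguinal fat, taken after removal of the lymph node and flash frozen, was made into stranded mRNA libraries per the labels' protocols. Per the submitters' processing notes, bcl2fastq 2.20.0.422 (chow) or bclfastq 2.16.0.10 (HFD), FastQC, STAR 2.4.1, DESeq2 and the mm10 genome were used. The counting tool, its annotation and its strand setting were not given in the sources used here. The authors deposited raw counts per gene in 2 tables, 1 per diet, with 39017 genes on chow and 38483 on HFD, which were joined by Ensembl identifier, and 0 columns of per-sample counts were left unused. The least different pair of libraries within a group had a chi-square per degree of freedom of 13.5, so no library was a second sequencing run of another. Whether libraries came from the same animal cannot be told from it.

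Main comparisons used edgeR 4.0.16 (R 4.3.3) with TMM scaling, its filter on low counts and the robust quasi-likelihood F test, fitted over all genes with Benjamini-Hochberg adjustment at 0.05. The WT-Tg and D316A-Tg contrasts used 12 libraries each and their difference all 24. The SE is the absolute log2 fold change divided by the square root of F. Scores are means of log2 CPM with a prior count of 2. On simulated WT-Tg counts of 14874 genes, 67 of 100 genes changed 2-fold and 93 of 100 changed 4-fold were recovered. Among 14674 unchanged genes 5 were called. In the simulation few genes were changed and each varied independently. Shared variation, such as that of lymphocyte and muscle RNA, was not simulated, so these rates do not carry over to the real counts.

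A gene was set aside by its name, its biotype (GENCODE M21), or where a processed pseudogene aligned to its transcripts with minimap2 2.31 at 90% identity over 50% of the pseudogene. Exon overlaps came from bedtools 2.31.1, and coordinates are GRCm38. Genes were named by a rule: a set always given, the 15 largest rises and 15 largest falls (5 CPM or more on average where higher, exon overlap up to 20%, function known), and the 4 called members of smallest adjusted p in each of 42 lists. Cidec, Fabp4, Ifit3, Igtp, Irgm1, Lipe, Naaa, Plin1, Pparg, Prkaa2, Prkab1, Srebf2, Krt1, Krt5, Krt14 and mt-Co1 were named outside it, after their values were seen, and a few genes that the rule names are not reported here. The members and lists were chosen with earlier results of these data known. Alternatives were other scalings, tools (DESeq2 1.42.0, limma 3.58.1) and filters, a replicate block, lymphocyte and muscle scores as covariates, and libraries left out. Figures were drawn with matplotlib 3.10.9.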

Additional observations from a re-analysis of the deposited data

Results flagged for a closer look

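Single libraries stood apart from the other 5 of their group, by a gap in log2 CPM (or in the score) over Dixon's critical share of the range for 6 samples, which chance passes in about 1 of 20 groups. Most genes named in the report were searched in both groups, so several such gaps would arise by chance alone. A single flag is therefore no result in itself. HFD library 3 had the highest B lymphocyte score, 6.11 against 2.05 for the next. In the same library Cd79a was at 125 CPM (next 3.95), Cd37 at 99.4 CPM (25.9), Zap70 at 10.6 CPM (1.14), Marco at 31.9 CPM (4.41) and Timd4 at 22.1 CPM (3.26), and Tph2 was lowest at 43.6 CPM (107). HFD library 4 was highest for Decr1 at 646 CPM (479), mt-Co2 at 27.8 CPM (19.8) and mt-Co3 at 24.4 CPM. Chow library 2 was lowest for Klf6 at 61.1 CPM (74.2). Chow library 5 was lowest for Irgm1 at 33.9 CPM (58.2).

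The cohort contrast differed between WT-Tg and D316A-Tg in edgeR's test of the difference for 24 genes named in the report. The difference of log2 fold changes, WT-Tg minus D316A-Tg, was positive for lipid genes: Fasn 1.55, Acly 1.70, Scd2 1.47, Elovl6 2.01 (uncertain for its pseudogene copy), Gk 2.17, Plin2 1.88 and Prkar2b 1.31. It was also positive for the sterol genes Hmgcs1 1.01, Hsd17b7 0.73, Lss 1.71 and Sqle 1.39, and negative for Srebf2, at -1.05. Decr1 had 1.24, Idh3a 1.04, Ndufa1 0.76, Hif1a 0.99, Gpx8 1.04 and Rora 1.05. Muscle genes had the most negative values, -8.44 for Acta1, -11.93 for Myh4 and -9.56 for Ttn, and Ngfr had -2.99. The Y-linked Ddx3y and Uty had 0.62 and 0.93. The part of lymphocyte and muscle RNA in these differences was not tested.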

How the results depend on the processing

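The WT-Tg contrast called 9304 of all genes tested, and between 8075 (without the lymphocyte-rich libraries) and 11612 (limma voom) under the other settings. Leaving out each library gave 8613 to 10263 calls in WT-Tg, 3598 to 5129 in D316A-Tg and 1368 to 4304 for the difference between genotypes. The share of calls that were higher was 46.3%, 49.8% with limma voom and 41.2% with upper-quartile scaling. Replicate numbers did not pair the samples: same-numbered deviations correlated at -0.25, -0.29, 0.55, -0.40, -0.02 and 0.35. With the replicate block the counts were 8380, 4406 and 2664.

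Without the lymphocyte-rich libraries the log2 fold change changed sign for Adipoq (-0.57), Plin1 (-0.14), Fabp4 (-0.10), Lipe (-0.27), Pparg (-0.33), Tnf (0.84), Dbp (1.19), Cd79a (1.20), Cd37 (0.87) and Marco (1.67). The same held for the medians of mature adipocyte (-0.10), branched-chain amino acid (-0.40), endothelial (-0.34), T lymphocyte (0.0027), B lymphocyte (0.32), lymph node stroma (0.92), neutrophil, mast and dendritic cell (0.076), blood cell (-0.36), clock (0.58), hypoxia (-0.018), TCA cycle (-0.26), creatine cycling (-0.19) and fatty acid oxidation (-0.010) lists. With the B lymphocyte score as covariate it did for Adipoq (-0.28), Dbp (0.41), Cd79a (0.65), Cd37 (0.10), Marco (0.27) and the progenitor (-0.050), B lymphocyte (0.10), lymph node stroma (0.13), clock (0.33), TCA cycle (-0.077), branched-chain amino acid (-0.13), creatine cycling (-0.042) and endothelial (-0.11) medians. With the muscle score it did for Ucp1 (-0.45), Acta1 (1.20), Myh4 (1.34) and the muscle (0.0019), AMPK subunit (0.16), brown and beige (0.019), skin (0.24) and smooth muscle (0.29) medians. With RLE size factors it did for the smooth muscle median (0.0043). Limma voom reversed Acta1 (0.57), Myh4 (1.40) and Krt8 (0.48), and the replicate block Krt8 (0.055). Leaving out single libraries reversed Adipoq (chow 1, 2 and 4), Ucp1 (HFD 4) and Krt8 (chow 2), with ranges over single libraries of -0.050 to 0.32, -0.011 to 1.79 and -0.88 to 0.56. The lymphocyte-rich libraries were chosen by the B lymphocyte score. Each score is made from its own list, so sign changes of that list and its members are in part built in. The cause of the sign changes was not tested. Genes with few counts, such as Krt8, Epcam and Timp1, have wide errors at this depth.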
